A study of Mus musculus with 8 samples.

Results

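The genes described here encode the proteins of the cytosolic ribosome. They are every gene of the platform's probe annotation whose own symbol is Rpl or Rps followed by a number, with an optional a, l, x or l1, together with Rplp0, Rplp2 and Rpsa. The kinases named Rps6k were left out. The rule uses names only and no measured value. It found 48 of the 18193 genes named by a probe set with a single symbol, and 46 of the 48 were bright enough to be tested. They comprise 26 genes of the large subunit and 22 of the small subunit. A further 28 ribosomal protein symbols, among them Rplp1 and Rpl5, occur only on probe sets that name several genes, so they have no value of their own here.

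RNA was measured on Affymetrix arrays in germinal centre B cells, the B220+CD38-CD95+ cells of C57BL/6 mouse lymph nodes. The mice had received the hapten-carrier antigen NP-KLH in alum by subcutaneous injection, and nodes were taken 12 days later. Cells were sorted by CXCR4 and CD83 into a light zone and a dark zone population, with 4 arrays each, labelled as biological replicates. No genotype difference or second treatment separates the zones, and the labels give neither the animals' age nor the number of animals behind an array.

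The labels call the light zone gate CXCR4hi/CD83lo and the dark zone gate the reverse, whereas Cd83 mRNA was lower in the dark zone arrays (dark minus light -2.32 on the log2 scale) and Cxcr4 mRNA was higher there (0.96). Groups are named here by the zone in their titles. Deposited intensities had medians of 27.3 to 28.1 per array and maxima of 24062 to 25362. Arrays of one zone correlated at 0.995 to 0.997 and arrays of different zones at 0.974 to 0.980 over all genes tested. All 9 matched germinal centre B cell markers were above the brightness filter, with summed intensities of 22456 to 23155 in light zone arrays and 24049 to 24814 in dark zone arrays. Gcsam differed by 1.48, S1pr2 by 0.26 and Fas by -0.23. The other 6 did not pass an adjusted p under 0.05 (limma). Myeloid markers summed to 223 to 276 in light zone and 307 to 1035 in dark zone arrays, with 4 of 8 above the filter. These were Lyz2 at 2.98, Csf1r at 0.40, Adgre1 at 0.07 and Cd68 at -0.40. T cell markers summed to 597 to 651 and 708 to 900, with 4 of 9 above the filter and Cd3d and Cd3g below it. The 4 were Cd2 at 0.70, Cd4 at 0.16, Cd3e at -0.05 and Lat at -0.52. Stromal markers summed to 108 to 114 and 105 to 118, with 1 of 5 above the filter. The 2 matched naive B cell markers summed to 2256 to 2439 in light zone and 543 to 588 in dark zone arrays, and 1 of them, Fcer2a, was above the filter (-2.06). Plasma cell markers summed to 10751 to 12069 and 11722 to 12263, all 5 above the filter, with Irf4 at -2.03, Prdm1 at -1.37 and Jchain at 0.15. Erythroid markers summed to 40.8 to 42.8 and 42.9 to 49.2, with 0 of 3 above it. The part of these other cells in the results below was not tested.

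Each ribosome holds one copy of nearly every ribosomal protein, so the cell makes these proteins in step with one another. Their mRNAs are among the most abundant in growing cells, and their translation is switched on by the kinase mTOR through a pyrimidine tract at the mRNA's 5' end, the TOP motif. In the germinal centre, B cells are selected in the light zone, where growth is induced, and divide mainly in the dark zone.

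Read on the brightest probe set of each gene, most of these genes gave nearly the same intensity in both zones, and the exceptions were mainly higher in the light zone. Dimmer probe sets of the same genes, described further on, often gave larger differences. Of the 46 genes tested, 12 had higher levels in the light zone, 2 in the dark zone, and 32 did not pass (limma, Benjamini-Hochberg adjusted p under 0.05 over all 10547 genes tested). In all genes tested, 43.9% passed, 24.8% higher in the light zone and 19.1% higher in the dark zone. The share of ribosomal protein genes that passed was 30.4%. Their share higher in the light zone was close to that of all genes, and their share higher in the dark zone was lower. The arrays of the zones did not overlap for 24 of the 46 genes, 19 with the light zone above and 5 with the dark zone above. Over all genes tested, 41.3% did not overlap, 23.2% with the light zone above and 18.1% with the dark zone above.

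The differences were small in size. The median difference, dark minus light zone on the log2 scale, was -0.03 for the ribosomal protein genes and -0.01 for all genes tested, and the median absolute difference was 0.08 against 0.17. The genes ranged from -1.002 to 0.30, with 35 below 0 and 11 above. In 32 of 46 the 2 zones were within 1.1-fold of one another, in 9 they differed by at least 1.2-fold and in 1 by at least 2-fold. For 28 of the 32 genes that did not pass, the 95% interval of the difference lay within 1.2-fold in either direction. The other 4 were Rps10, Rpl39, Rps4l and Rps6. The array normalization gives all arrays about the same distribution, so these values are relative to the other genes of the array, and fewer cells of a type cannot be told apart from less RNA per cell.

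Per array, the mean log2 intensity of the 46 genes was 12.24 to 12.29 in light zone arrays and 12.15 to 12.18 in dark zone arrays, a difference of -0.11. The other genes tested differed by -0.03 in the same mean. Counted on 1 probe set per gene, the 48 ribosomal protein genes held 3.56% ± 0.05 (SD, n = 4) of the intensity summed over all probe sets in light zone arrays. In dark zone arrays they held 3.43% ± 0.03 (SD, n = 4). Their other probe sets, and those naming several genes, enter only the total, so these are not the shares of all ribosomal protein mRNA. All 4 light zone arrays were above all 4 dark zone arrays in both measures. The mean of the other genes tested was separated in the same way, at 7.75 to 7.76 in light zone arrays and 7.71 to 7.73 in dark zone arrays.

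**Figure D1:**
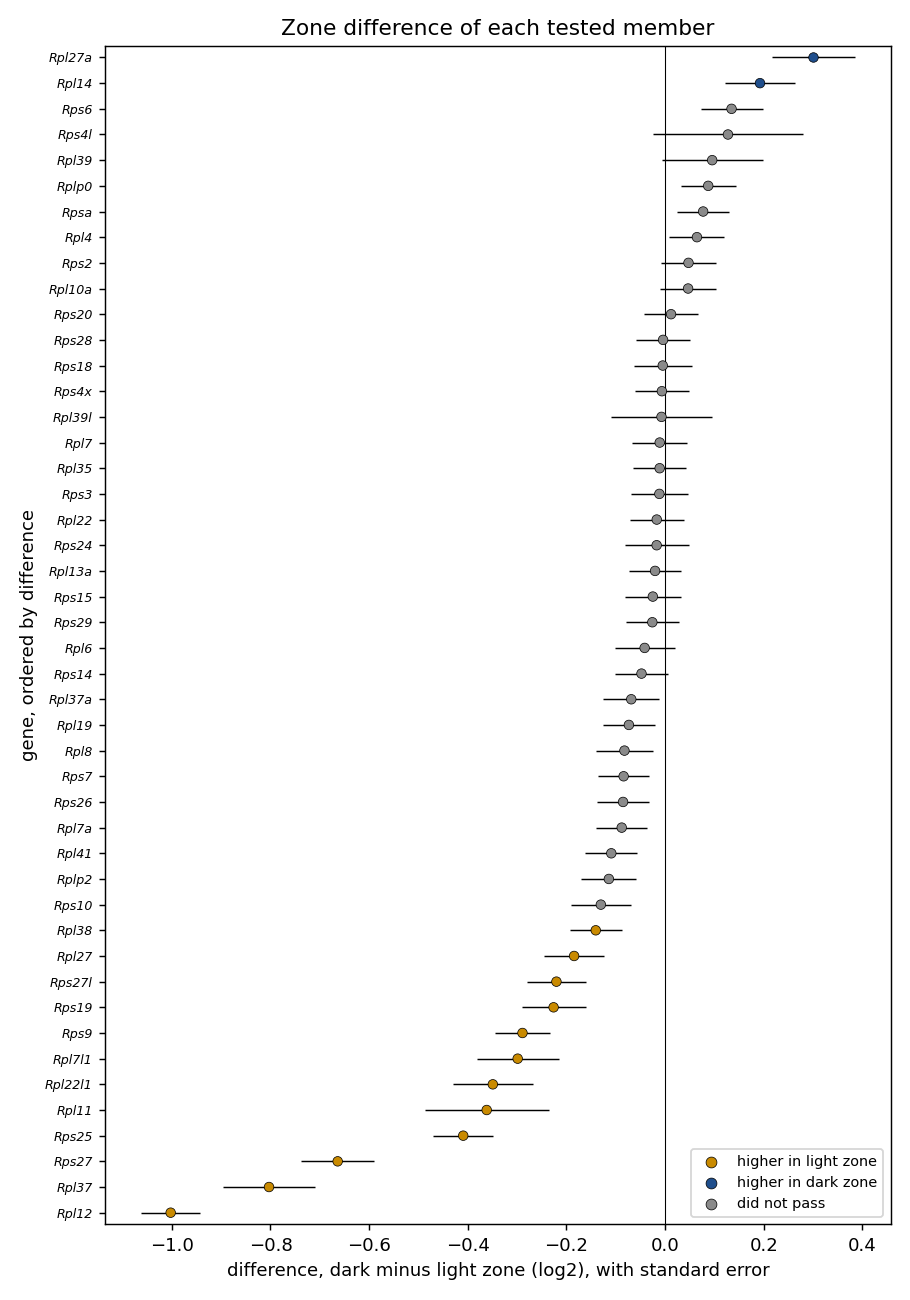
Difference between the zones (dark minus light, log2, x axis) for each of the 46 tested ribosomal protein genes, ordered by difference, with bars for the standard error from limma. Colours mark the 12 genes higher in the light zone, the 2 higher in the dark zone and the 32 that did not pass. The range runs from -1.002 for Rpl12 to 0.30 for Rpl27a.

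In the large subunit, 25 genes were tested, of which 7 were light-zone-high, 2 were dark-zone-high and 16 did not pass, with a median of -0.07. Rpl12, which sits at the base of the stalk where elongation factors bind, differed most. It has 1 probe set with a single symbol, at a mean log2 intensity of 8.64, and no brighter one to compare. Its intensities were 588.5, 574.6, 559.0 and 531.4 on the light zone arrays and 278.0, 266.6, 294.4 and 285.9 on the dark zone arrays. The lowest light zone array was well above the highest dark zone array. The light zone was 2.00-fold higher, with a log2 difference of -1.002 (SE 0.06, limma adjusted p = 9.8e-08).

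Rpl37, a zinc-binding protein of the large subunit, had intensities of 1370.4, 1814.0, 1438.6 and 1625.6 in the light zone. Its dark zone intensities were 792.6, 964.9, 937.6 and 875.0. The zones did not overlap, and the difference was -0.80 (SE 0.09, limma adjusted p = 2.9e-05).

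Rpl11 forms a complex with Rpl5 and a ribosomal RNA that, when free of the ribosome, binds MDM2, the ubiquitin ligase of p53. Its light zone intensities were 8565.9, 11591.5, 11568.9 and 11944.3, and its dark zone intensities were 9267.4, 7494.4, 7232.1 and 10021.0. The first light zone array lay below 2 of the dark zone arrays, so the zones overlapped. The difference was -0.36 (SE 0.13, limma adjusted p = 0.0357). It did not pass when light zone replicate 2, 3 or 4 (adjusted p = 0.0861, 0.082 and 0.0934) or dark zone replicate 2 or 3 (0.0964 and 0.0972) was left out, nor after centring the arrays on the other genes (0.0562) or with the trend and robust options of eBayes (0.1).

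Rpl27 and Rpl38 passed with smaller differences. Rpl27 had intensities of 7030.2, 7430.7, 7615.2 and 7707.5 in the light zone and 6898.9, 6575.8, 6099.0 and 6644.9 in the dark zone, a difference of -0.18 (SE 0.06, limma adjusted p = 0.0293). Rpl38, whose loss in mice alters the translation of Hox mRNAs, had 14740.4, 14760.8, 14544.1 and 14676.5 against 13802.9, 13021.4, 13247.8 and 13209.7, a difference of -0.14 (SE 0.05, limma adjusted p = 0.0489). The zones did not overlap for either gene. Rpl27 did not pass without light zone replicate 2, 3 or 4 (0.0537, 0.0742 and 0.0735) or dark zone replicate 2 or 3 (0.0547 and 0.0838). Rpl38 passed only without dark zone replicate 1 among the 8 single-array omissions, and its adjusted p was 0.0853 to 0.11 in the other 7. Rpl38 also did not pass without a brightness filter (0.084), with quantile normalization repeated (0.166) or with the replicate number as a block (0.068), and neither Rpl38 (0.117) nor Rpl27 (0.0669) passed after centring the arrays on the other genes.

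The 2 genes higher in the dark zone both belong to the large subunit. Rpl27a, a mutation of which causes ataxia in mice, had intensities of 190.2, 194.1, 153.8 and 168.3 in the light zone and 196.2, 223.6, 219.8 and 228.3 in the dark zone. The lowest dark zone array was just above the highest light zone array. The dark zone was 1.23-fold higher, a log2 difference of 0.30 (SE 0.08, limma adjusted p = 0.0120).

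Rpl14, also a large subunit protein, had light zone intensities of 287.7, 338.7, 314.6 and 355.5. Its dark zone intensities were 361.0, 357.3, 383.4 and 375.8. The highest light zone and the lowest dark zone array nearly touched, and the difference was 0.19 (SE 0.07, limma adjusted p = 0.0475). Rpl14 did not pass in 7 of the 8 single-array omissions (adjusted p = 0.0505 to 0.134), the exception being light zone replicate 4, so without any one of those 7 arrays Rpl27a was the single gene higher in the dark zone. It was also lost without a brightness filter (0.0676) and after centring arrays on their median (0.0792).

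In the small subunit, 5 of the 21 genes tested passed with the light zone above, none was higher in the dark zone by limma and 16 did not pass. At an unadjusted p under 0.05 the same number, 5, passed. The median was -0.02. Rps27, a zinc-finger protein of the small subunit, had light zone intensities of 134.1, 133.8, 123.6 and 128.6 and dark zone intensities of 86.6, 75.04, 91.4 and 76.3. The zones were far apart relative to their spread. The light zone was 1.58-fold higher, a log2 difference of -0.66 (SE 0.07, limma adjusted p = 1.9e-05).

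Rps25 is needed by several viral RNAs that recruit ribosomes internally. It had intensities of 1157.5, 1157.0, 1113.8 and 1262.4 in the light zone and 861.2, 853.9, 906.4 and 908.4 in the dark zone. No array of one zone reached the other. The difference was -0.41 (SE 0.06, limma adjusted p = 1.8e-04).

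Rps9 binds ribosomal RNA early in small subunit assembly. It had 8339.3, 8950.9, 8344.3 and 8526.0 in the light zone and 7122.8, 7104.8, 7031.1 and 6694.9 in the dark zone, a difference of -0.29 (SE 0.06, limma adjusted p = 0.0013). Rps19, the gene most often mutated in Diamond-Blackfan anaemia, had 13073.4, 13324.3, 12958.1 and 13563.1 against 10129.1, 11531.3, 11881.8 and 11786.2, a difference of -0.23 (SE 0.06, limma adjusted p = 0.0141). Neither gene's zones overlapped, and the first dark zone array was the lowest for Rps19.

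**Figure D2:**
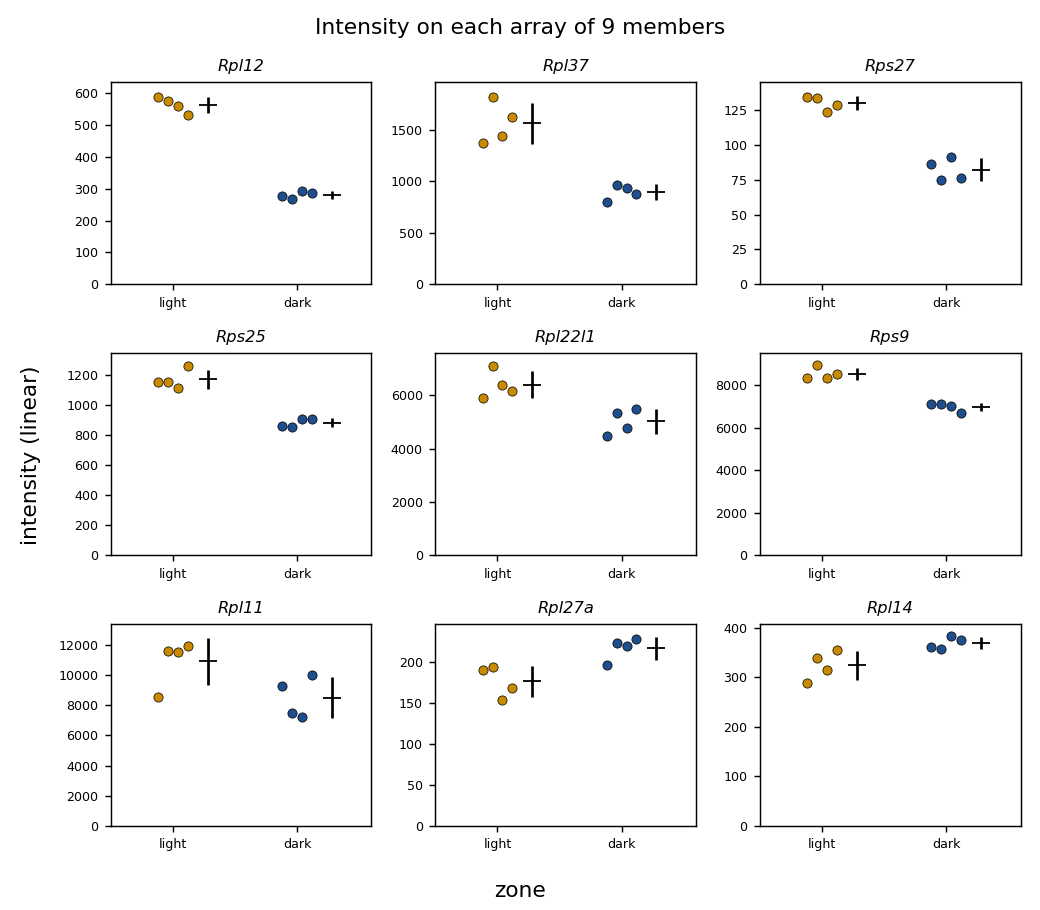
Linear intensity (y axis, from 0) on each of the 4 light zone and 4 dark zone arrays for 9 ribosomal protein genes, with the mean and SD beside the points. Rpl12, Rpl37, Rps27, Rps25, Rpl22l1 and Rps9 are higher on every light zone array, Rpl11 overlaps, and Rpl27a and Rpl14 are higher on every dark zone array.

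Of the 5 genes grouped here as paralogs of a standard ribosomal protein, 4 were tested. The group leaves out Rps4l, a retrocopy described below. Rpl22l1, the paralog of Rpl22 whose product can take its place in the ribosome, had light zone intensities of 5916.6, 7091.1, 6402.2 and 6161.3. Its dark zone intensities were 4483.4, 5337.3, 4773.2 and 5501.8. The zones did not overlap, and the difference was -0.35 (SE 0.08, limma adjusted p = 0.0044). Rpl22 itself had a difference of -0.02 and did not pass (95% interval -0.14 to 0.10).

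Rps27l, a paralog of Rps27 that p53 induces, had 3721.9, 4031.6, 3810.9 and 4042.7 in the light zone and 3520.6, 3302.2, 3409.7 and 3166.2 in the dark zone, a difference of -0.22 (SE 0.06, limma adjusted p = 0.0109). Rpl7l1, a paralog of Rpl7, had 597.9, 608.6, 667.5 and 711.0 against 500.5, 466.3, 576.1 and 560.9, a difference of -0.30 (SE 0.08, limma adjusted p = 0.0122). Both were higher on every light zone array. Rpl7 differed by -0.01 (95% interval -0.13 to 0.11). Rps27l did not pass when only plain probe sets were used (adjusted p = 0.133), where plain means the types _at and _a_at. Rpl7l1 did not pass when the probe sets of a gene were averaged (0.0775).

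Rpl39l, a paralog of Rpl39 expressed mainly in testis, was the dimmest gene tested, at 28.5 to 41.8 over the 8 arrays, and differed by -0.01. Rpl39 differed by 0.10 (adjusted p = 0.48) at intensities of 73.4 to 107. Rps4l, a retrocopy of Rps4x, differed by 0.13 (SE 0.15), and Rps4x by -0.01 at a far higher intensity. Rpl3l, the muscle paralog of Rpl3, was too dim to test at 13.2 to 15.3. Rps16 was also not tested, since its one probe set with a single symbol read 9.16 to 10.6 over all arrays.

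Neither stalk gene nor Rpsa passed. Rplp0, the base of the acidic stalk, had 13588.9, 13003.7, 13443.9 and 13678.1 in the light zone and 14970.6, 14204.1, 14171.1 and 13740.0 in the dark zone. Its arrays did not overlap, yet the difference of 0.09 did not pass (limma adjusted p = 0.23, 95% interval -0.03 to 0.21). Rplp2, an acidic stalk protein bound to that base, had 16902.7, 18276.0, 16857.3 and 17168.8 against 16322.9, 16053.9, 15935.2 and 15608.3, with the opposite sign (-0.11, limma adjusted p = 0.12). Neither stalk gene had an unadjusted p under 0.05. Rpsa, named for its second role as a laminin receptor, differed by 0.08 (adjusted p = 0.26), with 14545 to 15032 in the light zone and 15274 to 15978 in the dark zone.

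Rps6 is the ribosomal protein that S6 kinases phosphorylate downstream of mTOR. Its intensities were 257.1, 293.0, 264.6 and 293.2 in the light zone and 304.9, 309.1, 296.8 and 303.5 in the dark zone. Every dark zone array was higher, but the difference of 0.13 did not pass (SE 0.06, limma adjusted p = 0.10). Altogether 11 genes had arrays that did not overlap and did not pass, 8 with the light zone above and 3, Rps6, Rplp0 and Rpsa, with the dark zone above. Rps10 had the largest difference of the 8, -0.13 (SE 0.06, limma adjusted p = 0.10).

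The brightest probe sets read little difference between the zones, close to the top of the arrays' scale. Rpl41, which encodes the shortest ribosomal protein, was the brightest, with 22790.9, 23158.0, 22590.1 and 23235.6 in the light zone and 21542.7, 21529.2, 21293.9 and 20728.8 in the dark zone, close to the array maxima of 24062 to 25362. The zones did not overlap, and the difference was -0.11 (SE 0.05, limma adjusted p = 0.11). Rps29 and Rpl37a were next, with differences of -0.03 and -0.07. Of the 48 genes, 34 were above the 99th percentile of all probe sets. Whether such bright probe sets still respond in proportion to the mRNA was not tested, so a small difference on them does not show that the mRNA was at the same level.

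The genes fell on either side of a gap in brightness between log2 intensities of 10.20 and 11.82, and a boundary of 11 was drawn in it after the values were seen. At or above it lay 35 genes, of which 7 passed, all higher in the light zone, with a median absolute difference of 0.07. Below it 11 genes were tested and 7 passed, 5 with the light zone and 2 with the dark zone higher, with a median absolute difference of 0.30. These 7 were Rpl12, Rpl37, Rps27, Rps25, Rpl7l1, Rpl27a and Rpl14. Each gene is read on its brightest probe set with a single symbol, so these 7 have none at or above the boundary. Their differences rest on dimmer probe sets alone. Other genes at or above the same boundary passed in 46.6% of cases (24.5% with the dark zone above, 22.1% with the light zone above), and other genes below it in 43.8%. The count of 7 bright genes fell to 4 without light zone replicate 2, 3 or 4, without dark zone replicate 2 or 3, or after centring the arrays on the other genes. It rose to 13 with averaged probe sets and to 14 with the trend and robust options of eBayes.

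At log2 intensities of 13 to 15, 3 of 31 ribosomal protein genes (9.68%) and 15 of 47 other genes (31.9%) passed, with median absolute differences of 0.05 and 0.10. All 3 of the ribosomal protein genes between 12 and 13 passed, namely Rps9, Rpl27 and Rpl22l1, against 40.7% of 189 other genes. Over the 46 genes, the mean level and the absolute difference had a Pearson correlation of -0.46 and a Spearman correlation of -0.49, and over all 10547 genes 0.07 and 0.14. These are correlations across genes on the same 8 arrays, given as a description.

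**Figure D3:**
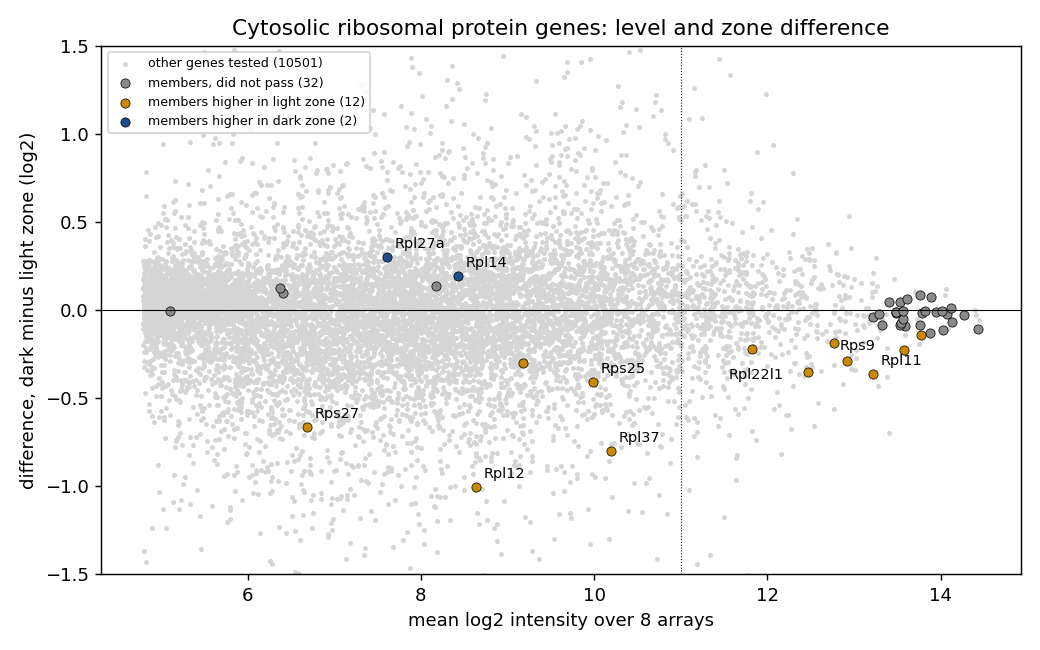
Mean log2 intensity over the 8 arrays (x axis) against the difference between the zones (dark minus light, log2, y axis) for the 46 ribosomal protein genes and, in light grey, the 10383 other genes within 1.5 of 0 (118 lie outside). The dotted line marks a log2 intensity of 11. The ribosomal protein genes to its right lie near 0, except the 7 that passed, and those to its left are spread from -1.002 to 0.30.

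Probe sets of the same gene gave different answers. The ribosomal protein genes have 104 probe sets with a single symbol. Of the 93 above the filter, 22 had the light zone above and 4 the dark zone in a fit over all probe sets, in which 40.8% passed, 21.4% higher in the light zone and 19.3% higher in the dark zone. Among the 68 at log2 11 or more, 11 had the light zone above and 0 the dark zone (limma). Among the 25 dimmer ones tested, the counts were 11 and 4. Of the 21 genes with at least 2 tested probe sets, 13 had some that passed and some that did not, 8 had none that passed, and in 17 the dimmest had a larger absolute difference than the brightest. No gene had probe sets that passed in opposite directions. Rpl14 and Rpl38, on the probe sets used above, did not pass in the fit over all probe sets (limma adjusted p = 0.059 and 0.066).

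Rps24, a small subunit protein mutated in some Diamond-Blackfan anaemia, was the widest case. Its brightest probe set, at a log2 intensity of 13.49, differed by -0.02 and did not pass. Its other 4 tested probe sets were all higher in the light zone. They stood at log2 intensities of 13.41, 13.30, 12.10 and 5.70, with differences of -0.38, -0.26, -0.45 and -0.99 and limma adjusted p-values of 0.042, 0.014, 0.0058 and 1.2e-04.

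Rpl41 had 2 bright probe sets at -0.11 and -0.12 that did not pass. Its 2 dimmer ones, at log2 intensities of 8.56 and 7.51, were higher in the light zone by -0.44 and -0.71 (limma adjusted p = 3.4e-04 and 2.0e-05). Rps9 differed by -0.29 at a log2 intensity of 12.91, by -0.21 at 12.42, which did not pass, and by -0.89 at 7.84 (limma adjusted p = 1.2e-06). Rpl37a differed by -0.07 and -0.11 on its bright probe sets and by -0.41 on one at 7.49.

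The 4 probe sets higher in the dark zone were all dim. They were the probe set of Rpl27a given above and the dimmest tested ones of Rps20 (0.35 at a log2 intensity of 4.97), Rps3 (0.29 at 8.26) and Rpl22 (0.28 at 7.41). The brightest probe sets of Rps20, Rps3 and Rpl22 differed by 0.01, -0.01 and -0.02. Rps20 and Rps3 are small subunit proteins, and Rps3 lies where mRNA enters the ribosome. Averaging the probe sets of Rps3 turned its sign, to 0.17 (limma adjusted p = 0.0096).

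Ribosomal protein genes have many processed pseudogenes and near-identical copies, so the values of single probe sets are uncertain as to the transcript they read. Of the 104 probe sets, 40 are of the type _x_at, which the manufacturer marks as sharing probes with other transcripts, and 8 of the 39 tested passed, all higher in the light zone. Of the 34 whose names end in _at with no added letter, 24 were tested and 9 passed, 7 with the light zone and 2 with the dark zone above. A separate 110 probe sets pair a ribosomal protein symbol with other symbols. Of their 106 tested, 19 had the light zone above and 5 the dark zone, with a median of -0.04, and the 79 bright ones gave 13 and 0. Which transcripts each probe set reads was not tested.

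**Figure D4:**
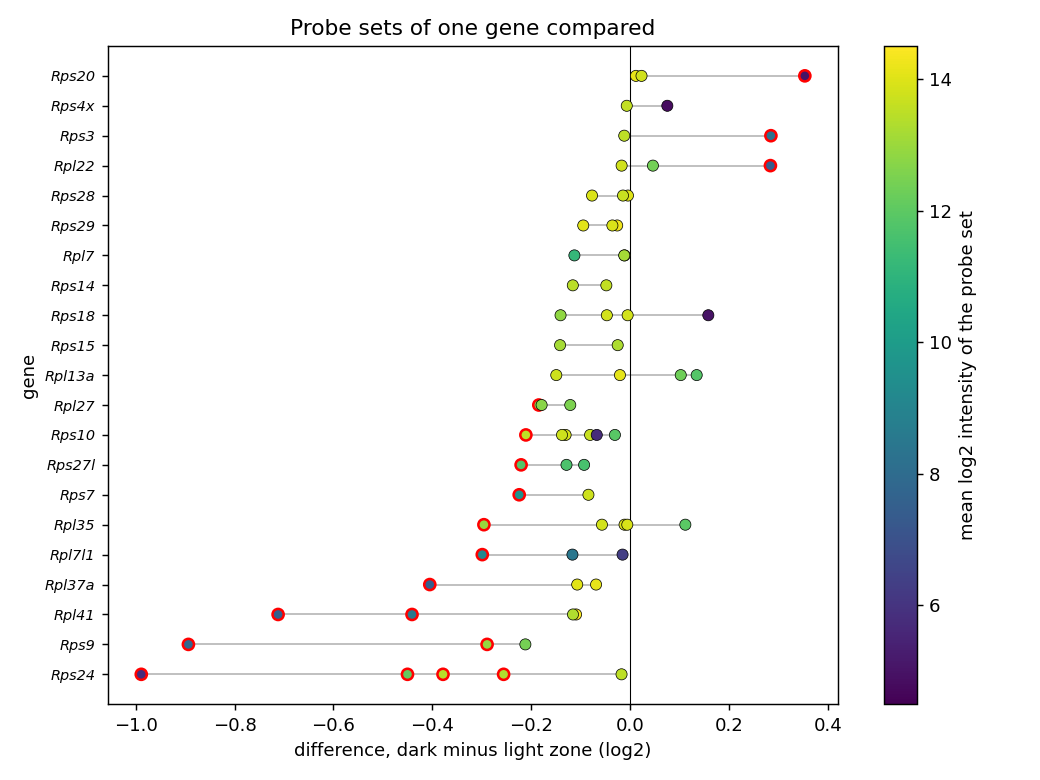
Difference between the zones (dark minus light, log2, x axis) for every tested probe set of the 21 ribosomal protein genes (y axis) that have at least 2, coloured by mean log2 intensity, with red rims where limma's adjusted p was under 0.05 over all probe sets. The points farthest from 0 are mostly dim: -0.99 for Rps24, -0.89 for Rps9, -0.71 for Rpl41 and 0.35 for Rps20.

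The sequence around the annotated transcription start was examined for features that the rule did not use. RefSeq promoter entries of build GRCm38.p6, with 250 bases before and 50 after each annotated start, were matched by symbol for 42 of the 48 genes. A TOP-like tract, here a C followed by at least 5 further C or T bases and read on the gene's strand within 15 bases of an annotated start, was present in 25 of 42 genes (59.5%), against 25.5% of the 27025 genes with an entry and 27.6% of tested genes. It was present in 7 of the 12 genes higher in the light zone, both dark-zone-high genes and 16 of the 26 that did not pass. The windows of the 9 genes that passed and differed by at least 1.2-fold, and of Rpl14, the other gene higher in the dark zone, are shown with 15 bases before and 15 from the start, 5' to 3' on the gene's strand, and capitals mark the tract. Rpl27a and Rpl14 had the dark zone above and the other 8 the light zone. Rpl37, Rps25, Rpl11 and Rpl7l1 have no tract in this window. For Rps25, a run of C and T bases crosses the window's upstream edge, so its absence depends on where the window was cut.
Rpl12 (chr2:32961697-32961726, + strand): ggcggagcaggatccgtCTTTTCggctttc
Rps27 (chr3:90213634-90213663, - strand): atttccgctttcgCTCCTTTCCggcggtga
Rpl22l1 (chr3:28805493-28805522, + strand): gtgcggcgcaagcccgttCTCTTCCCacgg
Rps9 (chr7:3704026-3704055, + strand): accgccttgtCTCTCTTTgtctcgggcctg
Rpl27a (chr7:109519180-109519209, + strand): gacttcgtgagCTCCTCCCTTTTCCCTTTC
Rpl14 (chr9:120571502-120571531, + strand): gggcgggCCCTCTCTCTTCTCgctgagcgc
Rpl37 (chr15:5116598-5116627, + strand): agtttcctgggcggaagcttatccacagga
Rps25 (chr9:44407699-44407728, + strand): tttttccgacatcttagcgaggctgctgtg
Rpl11 (chr4:136053379-136053408, - strand): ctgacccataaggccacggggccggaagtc
Rpl7l1 (chr17:46782642-46782671, - strand): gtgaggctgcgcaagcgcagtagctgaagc

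Of 5 short motifs sought on both strands of the whole 300 bases, each on its own and so free to overlap another, CCGGAAG differed most in frequency from other genes. CCGGAAG is a core that ETS-family factors such as GABP bind. It was found in 20 of 42 ribosomal protein genes (47.6%), against 9.93% of all genes and 21.6% of tested genes, and in 5 of the 12 genes higher in the light zone and 14 of the 26 that did not pass. AAGATGGC, a YY1-type motif, was found in 4 of 42 (9.52%, against 3.19% and 5.78%). CACGTG, the E-box that MYC with MAX binds, was also found in 4 (9.52%, against 8.09% and 12.0%). GGGCGG, which SP1 binds, was found in 24 (57.1%, against 38.2% and 68.5%), and TATAAA, the TATA box, in 6 (14.3%, against 15.7% and 8.38%). The 150 bases before the start are shown for Rps27 with AAGATGGC in capitals, and for Rpl37 and Rps25 with CCGGAAG in capitals, since these 3 had the largest differences among genes with either motif in that stretch.
Rps27 (chr3:90213649-90213798, - strand): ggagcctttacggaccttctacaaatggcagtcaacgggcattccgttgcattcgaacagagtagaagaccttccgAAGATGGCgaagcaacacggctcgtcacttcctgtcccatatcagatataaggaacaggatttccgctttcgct
Rpl37 (chr15:5116463-5116612, + strand): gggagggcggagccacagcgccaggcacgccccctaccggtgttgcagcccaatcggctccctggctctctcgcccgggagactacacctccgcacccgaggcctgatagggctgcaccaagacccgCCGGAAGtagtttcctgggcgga
Rps25 (chr9:44407564-44407713, + strand): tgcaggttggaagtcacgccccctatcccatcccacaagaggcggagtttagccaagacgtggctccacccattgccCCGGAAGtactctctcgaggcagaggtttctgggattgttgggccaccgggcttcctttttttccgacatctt

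The genes that act on these mRNAs and proteins were described by the same fit. Of 8 genes for transcription factors of ribosomal protein genes, Myc was higher in the light zone (-2.10, limma adjusted p = 1.8e-07). Tbpl1, a TBP-related factor used at TATA-less promoters, was higher in the dark zone (0.27, limma adjusted p = 0.0025), as was Gabpa, the DNA-binding subunit of GABP (0.17, 0.0315). The other 5 did not pass, and Yy1 and Sp1 stood at 0.00 and 0.15. Gabpa did not pass in 6 of the 8 single-array omissions (adjusted p = 0.0571 to 0.0873), all but light zone replicate 2 and dark zone replicate 4. The count of factors higher in the light zone became 2 without light zone replicate 2, dark zone replicate 1 or dark zone replicate 3.

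Among 12 tested genes of the control of TOP mRNA translation, 2 had higher levels in the dark zone, 1 in the light zone, and 9 did not pass. Akt1 and Tsc1, which act upstream of mTOR, were higher in the dark zone by 0.49 and 0.46 (limma adjusted p = 2.3e-04 and 1.6e-04). Eif4ebp1, the translation repressor that mTOR inactivates, was higher in the light zone (-0.32, limma adjusted p = 0.0143). Larp1, which binds the TOP motif, and Mtor did not pass, with differences of 0.05 and 0.15.

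Other mRNAs known to carry a TOP motif gave 5 higher in the light zone, 1 higher in the dark zone and 12 not passed among 18 tested, with a median of -0.03. Gas5, a non-coding host of small nucleolar RNAs, had the largest difference (-0.69, limma adjusted p = 9.9e-07), followed by the splicing factor Hnrnpa1 (-0.43, 4.3e-04), Btf3 (-0.29, 0.0142) and the elongation factor subunit Eef1b2 (-0.24, 0.0279). Eef1b2 did not pass without light zone replicate 2 (0.0804) or 3 (0.0521), without dark zone replicate 1 (0.0757) or 3 (0.0665), or after centring the arrays on the other genes (0.0601). Npm1, a nucleolar chaperone, passed at -0.18. Eif4b, an initiation factor, was higher in the dark zone (0.24, limma adjusted p = 0.0172) but not without light zone replicate 2 (0.0518) or 4 (0.0503). The bright elongation factors Eef1a1 and Eef2 did not pass, at 0.08 and 0.10.

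Of the list of other ribosome parts, 3 genes were tested, of which Rps4l is one of the 46 above. By limma 0 of the 3 passed, with 1 at an unadjusted p under 0.05. Fau, which encodes a small subunit protein fused to a ubiquitin-like domain, had a difference of -0.14 (limma adjusted p = 0.0566). Rps3a1 stood at -0.11 (limma adjusted p = 0.19). The count of the 3 that were higher in the light zone became 1 without dark zone replicate 1, with the filter at the 75th percentile, averaged probe sets, median centring, the pseudocount or array weights, and 2 with the trend and robust options.

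Most genes that make and process ribosomal RNA were higher in the light zone. Of 25 genes for RNA polymerase I and ribosomal RNA processing, 21 had higher levels there, 1 in the dark zone, and 3 did not pass, with a median of -0.34. Gnl3, a nucleolar GTPase, and Rrp1b, a nucleolar protein, differed by -1.21 and -0.9998 (limma adjusted p = 2.3e-08 and 1.0e-05). Nhp2 and Nop56, which belong to small nucleolar ribonucleoproteins, differed by -0.70 and -0.58. Taf1b, a subunit of the polymerase I selectivity factor, was higher in the dark zone (0.47, limma adjusted p = 7.4e-04).

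Of 20 tested chaperones and late assembly factors, 8 had higher levels in the light zone, 2 in the dark zone, and 10 did not pass, with a median of -0.10. The late small subunit factors Riok2, Tsr1 and Ltv1 differed by -0.68, -0.60 and -0.56, and Grwd1, a chaperone of Rpl3, by -0.66. Lsg1, a GTPase of late large subunit maturation, and the kinase Riok1 were higher in the dark zone, by 0.59 and 0.23 (limma adjusted p = 5.3e-04 and 0.0148). Riok1 stood at 0.01 when its probe sets were averaged (limma adjusted p = 0.929).

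Among 7 tested genes of the p53 pathway that free ribosomal proteins can engage, Sesn1, a stress-induced inhibitor of mTOR signalling, was higher in the light zone (-0.74, limma adjusted p = 1.2e-05). Mdm4, an inhibitor of p53, was higher in the dark zone (0.40, limma adjusted p = 0.0031), but stood at -0.01 when only plain probe sets were used (0.947). Mdm2 and the p53 target Cdkn1a did not pass, at 0.18 and 0.03. The count higher in the light zone became 2 or 3 without light zone replicate 1 or 2 or without dark zone replicate 1 or 4.

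The mitochondrial ribosomal proteins, which serve the separate ribosome of that organelle, were dimmer. Of the 76 tested, 24 had higher levels in the light zone, 10 in the dark zone, and 42 did not pass (44.7% passed), with a median of -0.06 and a median absolute difference of 0.16. Mrpl17 and Mrpl12 differed by -0.52 and -0.44, and Mrpl27 and Mrpl9 by 0.32 each. Mrpl12 stood at -0.27 without dark zone replicate 1 (limma adjusted p = 0.0065) and did not pass without light zone replicate 4 (0.0524). Their log2 intensities ran from 6.55 to 11.3, whereas the cytosolic genes had a median of 13.51. The difference between these lists was not tested.

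**Figure D5:**
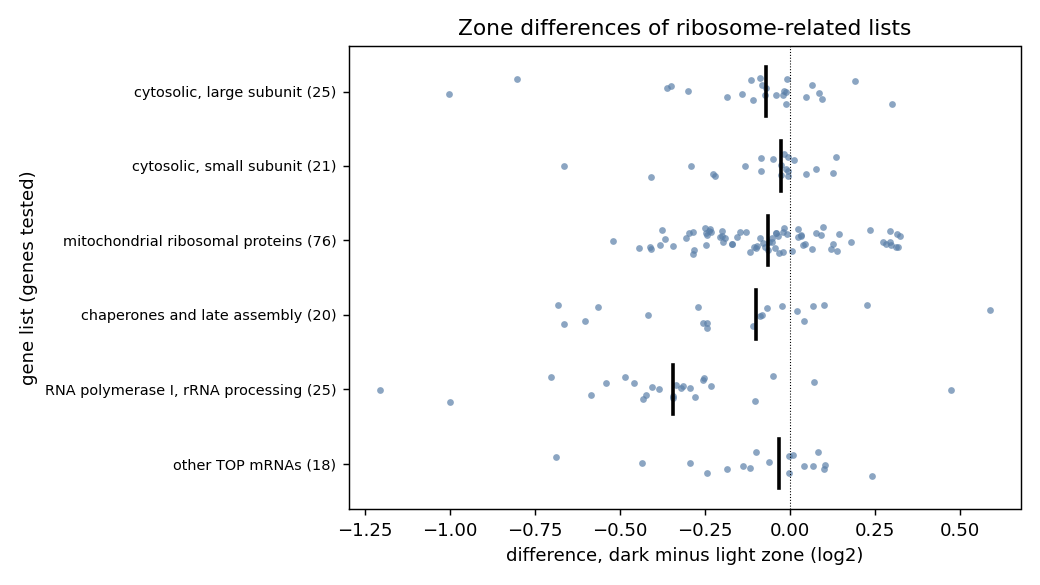
Difference between the zones (dark minus light, log2, x axis) for each tested gene of 6 lists (y axis, with the number of genes), with a bar at each list's median. The medians were -0.07 and -0.02 for the large and small cytosolic subunits, -0.06 for mitochondrial ribosomal proteins, -0.10 for chaperones and late assembly, -0.34 for RNA polymerase I and rRNA processing and -0.03 for other TOP mRNAs.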

How the data were processed

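Germinal centre B cells of the light zone and the dark zone were measured on 4 arrays each. The authors deposited 1 table of linear intensity values per probe set, made with RMA per the submitters' processing notes, whose version is not given in the sources used here. The fixed plan had assumed log2 values, so the log2 of the intensity was taken here, with no pseudocount. Gene names came from the platform annotation (34945 of 45037 carry 1 symbol, 932 several, 9160 none here), and each gene took its probe set with the highest mean. Genes at or above the 50th percentile of probe set means (an intensity of 27.8) were tested: 10547 of 18193.

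Zones were compared with limma 3.58.1 in R 4.3.3 (lmFit, eBayes, two-sided, Benjamini-Hochberg adjusted p under 0.05), and the pipeline was tested on simulated data. Figures were drawn with matplotlib 3.10.9. The labels call the samples biological replicates without saying whether animals were shared or pooled, so p-values measure the spread between these arrays, and the number of arrays limits the precision. No array pair held identical values. Named are all members past the threshold, the 5 largest differences in each direction, the 3 brightest and dimmest members, the stalk genes, Rpsa, Rpl11, Rps6, paralogs with their parents, untested members, and up to 4 genes that passed from each related list, with those that opposed their list. Further members and list genes named beside them were chosen after their values were seen. The members and lists were chosen with earlier results of these data known. Alternatives covered the filter, probe set choice, scaling, pseudocount, test options, thresholds and single arrays left out.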

Additional observations from a re-analysis of the deposited data

Results flagged for a closer look

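Among the 92 sets of 4 arrays formed by 46 genes and both zones, 5 (5.43%) held an array whose gap to the nearest other array, as a share of the set's range, exceeded Dixon's 95% critical value. Chance flags about 1 in 20 such sets. Rpl11 in light zone replicate 1 was far below the rest, at 8565.9 against 11568.9 to 11944.3 (ratio 0.904), and the Rpl11 call depends on single arrays as given above. Rpl7a in dark zone replicate 2 was highest, at 12146.4 against 11871.2 to 11880.4 (ratio 0.966). Rpl22 in the same array was lowest, at 13452.4 against 14184.8 to 14267.1 (ratio 0.902). In light zone replicate 4, Rpl10a was highest, at 11278.4 against 10387.1 to 10520.0 (ratio 0.846), as was Rps4x, at 12406 against 12076.5 to 12130.2 (ratio 0.835).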

How the results depend on the processing

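The count of all genes called stayed within 1.5 times of 4629 under every alternative run (3205 to 4787). Of the 14 ribosomal protein genes called, 10 passed whichever single array was left out, and 6 passed under every alternative that gave them a value: Rpl12, Rpl22l1, Rpl37, Rps25, Rps27 and Rps9. Rps27 had none with the filter at the 75th percentile, nor Rpl37 with plain probe sets. None of the 32 uncalled genes passed after leaving out an array (limma), and 15 passed under some other alternative. The 12 genes higher in the light zone became 6 at an adjusted p of 0.01, and leaving out single arrays gave 9 to 12. Counting probe sets, an alternative added after seeing the data, gave 22 with 1 symbol and 19 with several symbols. The 2 genes higher in the dark zone became 1 without a filter, 1 with arrays centred on their median, 1 with a minimum of 1.2-fold, 0 at an adjusted p of 0.01, 4 with averaged probe sets, 4 with trend and robust options, and 4 and 5 over probe sets with 1 and several symbols. Leaving out single arrays gave 1 to 2. The median difference of member genes, -0.034, became -0.045 with the filter at the 75th percentile, -0.078 with averaged probe sets, -0.077 with plain probe sets, -0.057 with median centring, -0.016 with repeated quantile normalization and 0.00113 with arrays centred on the other genes. Leaving out single arrays gave -0.0522 to -0.0281. The sign turned for Rps3 with averaged probe sets (0.168) and, with plain probe sets, for Mdm4 (-0.00622) and Mrpl38 (0.0212). Apart from the smaller counts that stricter thresholds give, the cause was not tested. Same-numbered light and dark arrays had deviations that correlated at 0.13, 0.19, 0.06 and 0.24. Each light zone array correlated best with the same-numbered dark zone array. Among the dark zone arrays, only replicate 3 correlated better with another number, light zone replicate 1 (0.09 against 0.06). The labels do not say whether the numbers pair samples, and the main fit did not pair them. With the replicate number as a block, the counts were 11 (light zone higher) and 2 (dark zone higher). No probe sequences or detection calls were used, and intensities near the array maximum were taken as given.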
